A study of Homo sapiens with 12 samples.

Results

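The kidney lineage transcription factors described here are PAX2, PAX8, HNF4A, HNF4G, LHX1, EMX2, WT1 and POU3F3. Their members on the array are the probe sets whose annotated symbol is one of these 8 names. Such probe sets numbered 19 of 54675, for 7 of the 8 genes; no probe set was annotated HNF4A in the table used here, and HNF4A was therefore not analysed here. All 8 probe sets of PAX8 and 1 of the 2 of HNF4G were above a log2 value of 4 in 3 or more arrays, which left 2 of the 8 genes with a measurable level. The other 10 probe sets, for PAX2, LHX1, EMX2, POU3F3, WT1 and HNF4G, lay near the array's floor.

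HK-2 cells are a single immortalized line of human renal proximal tubular epithelial cells. The 4 groups were cells exposed to a low dose of Kbr for 24 h, vehicle controls at 24 h, cells exposed to the same low dose for 48 h, and vehicle controls at 48 h. Each group held 3 arrays, which the labels call biological replicates; whether they came from separate cultures is not stated, so the p values measure the spread between these samples. The sources used here give neither the dose's concentration nor the full name of Kbr, and the design text places the exposure in a wider comparison of compounds that sought signatures of toxicity. All cells, controls included, grew in medium with epidermal growth factor, hydrocortisone, insulin and transferrin.

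The paired-box factors PAX2 and PAX8 act together at the start of kidney formation, with the LIM-homeobox factor LHX1 and the homeobox factor EMX2 in the same early epithelium. WT1, a zinc-finger factor, is needed in the nephron progenitors and stays on in podocytes, and the POU factor POU3F3 acts in the forming tubule segments. HNF4A and HNF4G are nuclear receptors that bind DNA as dimers; HNF4A in particular drives the genes of the mature proximal tubule. PAX8 stays on in adult tubule epithelium and is used as a marker of renal epithelial origin.

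The region upstream of PAX8 is shown because PAX8 is the gene among the 8 with probe sets well above the floor. The sequence is that of RefSeq on GRCh38.p14, chr2:113278922-113279171, minus strand, printed 5′ to 3′ for the 250 bases before the annotated start. Capitals mark the letters CCAAT.
PAX8: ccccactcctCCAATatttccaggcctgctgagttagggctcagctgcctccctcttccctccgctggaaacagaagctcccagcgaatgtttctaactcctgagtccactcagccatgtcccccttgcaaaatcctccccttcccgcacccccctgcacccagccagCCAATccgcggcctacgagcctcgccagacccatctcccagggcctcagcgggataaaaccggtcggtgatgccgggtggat
The PAX8 window had 2 matches to CCAAT, which begin 240 and 82 bases before the start. Over the 300 bases from 250 before to 50 after the start, 62% of the PAX8 bases were G or C and CpG occurred 13 times, against medians of 58.7% and 14 over 35116 such windows. CCAAT, searched on both strands, was in 4 of 11 windows of 6 members (PAX8, POU3F3, EMX2 and HNF4A, 1 window each) and in 34.6% of all windows. TATAAA, found in 11.5% of all windows, TGACNNNGC, found in 13.3%, and GCGGGGGCG, found in 5.07%, were in none of the 11. These are matches of letters and carry no measurement of binding.

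**Figure D1:**
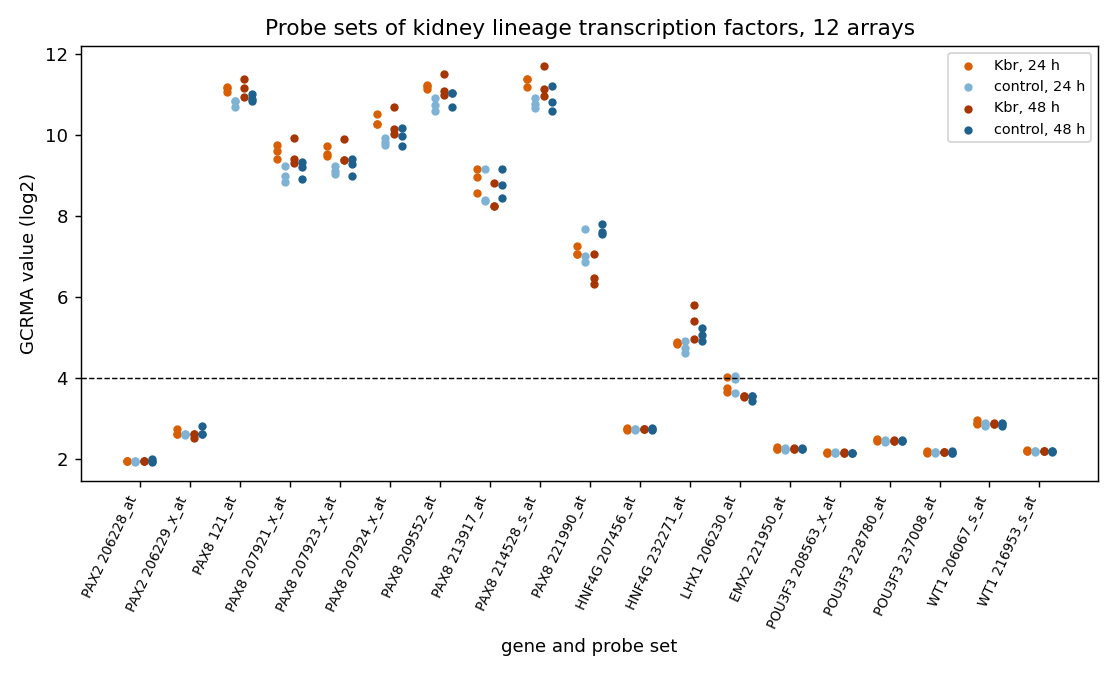
Deposited GCRMA values (log2, vertical axis) of the 19 probe sets in the 12 arrays, 3 points per group; the dashed line marks log2 4. The 8 PAX8 probe sets and HNF4G 232271_at lie above the line, and LHX1 206230_at crosses it in 2 arrays.

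The arrays had median log2 values of 2.91 to 2.99, with 40.0% to 40.4% of probe sets above 4. Arrays of a group correlated at 0.982 to 0.993 (Pearson's r across the 10665 genes tested, 1 probe set each). The log2 signal of the ACTB control read at its 3′ end exceeded that read at its 5′ end by 0.75 to 0.98 in Kbr cells and 0.67 to 0.99 in controls at 24 h, and 0.78 to 1.07 in Kbr cells and 0.70 to 1.04 in controls at 48 h. Of 27 annotated proximal tubule genes, 7 were above the floor, among them the amino acid transporter subunit SLC3A1, the peptidase DPP4, the inositol oxygenase MIOX and the kidney cadherin CDH6. The endocytic receptors LRP2 and CUBN, the transporters SLC34A1 and SLC22A6, the water channel AQP1 and the peptidase ANPEP, all defining markers of the segment, were below it. The proximal tubule label therefore rests on part of its marker list in these arrays.

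PAX8 had its higher values in Kbr cells. The probe set that stands for the gene, 214528_s_at, has the highest mean of the 8. At 24 h its log2 values were 11.38, 11.19 and 11.40 in Kbr cells, against 10.78, 10.69 and 10.92 in controls. At 48 h they were 11.14, 10.97 and 11.72 in Kbr cells, against 10.82, 10.61 and 11.22 in controls. At 24 h every Kbr array lay above every control array, where 31.8% of all genes tested had groups that did not overlap, in either direction. At 48 h the PAX8 groups overlapped and replicate 3 was the highest of each. Within a replicate number the Kbr array was the higher in 6 of 6 pairs.

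The PAX8 group means were 11.32 ± 0.12 in Kbr cells and 10.80 ± 0.12 in controls at 24 h (SD, n = 3 each), a log2 difference of 0.53 with a standard error (SE) of 0.20, or 1.44-fold. In limma across 10665 genes this difference had a Benjamini-Hochberg adjusted p of 0.137, so PAX8 did not pass the threshold of 0.05. With the replicate number as a block, which the pairing of the arrays warrants, the adjusted p was 0.0133, and with only the groups compared in the fit it was 0.0489. At 48 h the means were 11.28 ± 0.39 in Kbr cells and 10.88 ± 0.31 in controls (SD, n = 3 each). The log2 difference was 0.40 (SE 0.20), with a limma adjusted p of 0.128, and 0.0163 with the block. Over the 12 fits that each left out 1 array, this difference ranged from 0.17 to 0.56, and 1 passed. That fit left out replicate 3 of the 48 h controls (limma adjusted p 0.0469), and in other fits the adjusted p reached 0.431. In bulk arrays, fewer cells of a type and less RNA per cell cannot be told apart.

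Over time, PAX8 did not pass a test. From highest to lowest the group means ran Kbr at 24 h, Kbr at 48 h, control at 48 h and control at 24 h. In the fit without the block no pair of neighbours in that order passed a test, and the log2 difference between 48 h and 24 h was -0.05 in Kbr cells (limma adjusted p 0.909) and 0.08 in controls (0.846). The Kbr effect at 48 h minus that at 24 h was -0.13 (SE 0.28, limma adjusted p 0.864), and its sign, like that of both time differences, turned when single arrays were left out.

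HNF4G, the second measurable gene, is a relative of HNF4A found in kidney, gut and pancreas. Its probe set 232271_at had log2 values of 4.89, 4.84 and 4.86 in Kbr cells, against 4.61, 4.73 and 4.91 in controls at 24 h. At 48 h the values were 5.41, 5.80 and 4.96 in Kbr cells, against 5.05, 4.91 and 5.22 in controls. The groups overlapped at both times, and Kbr replicate 3 at 48 h stood well below the other 2 Kbr arrays of that time.

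The HNF4G means were 4.87 ± 0.023 in Kbr cells and 4.75 ± 0.15 in controls at 24 h (SD, n = 3 each), a log2 difference of 0.12 (SE 0.18, limma adjusted p 0.748). At 48 h they were 5.39 ± 0.42 in Kbr cells and 5.06 ± 0.16 in controls (SD, n = 3 each), a log2 difference of 0.33 (SE 0.18, limma adjusted p 0.160). Over the 12 fits that each left out 1 array, the difference at 48 h ranged from 0.13 to 0.55, and 1 passed. That fit left out Kbr replicate 3 at 48 h (limma adjusted p 0.0121), and in other fits the adjusted p reached 0.550. HNF4G lies close to the floor in all groups, and at a floor of log2 6 HNF4G was not tested.

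HNF4G was the gene of the 2 with the larger difference over time in Kbr cells. Every Kbr array at 48 h was above every Kbr array at 24 h, where 30.8% of all genes tested had groups that did not overlap, in either direction. The log2 difference was 0.52 (SE 0.18), with a limma adjusted p of 0.0840. Over the 12 fits that each left out 1 array, this time difference ranged from 0.32 to 0.74, and 1 passed. That fit left out Kbr replicate 3 at 48 h (limma adjusted p 0.00651), and in other fits the adjusted p reached 0.269. Controls differed by 0.31 over the same interval (adjusted p 0.349), and the difference between the 2 Kbr effects was 0.22 (adjusted p 0.726). The second HNF4G probe set, 207456_at, lay between 2.71 and 2.76 in all 12 arrays.

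By gene, then, 0 of 2 tested members passed at 24 h, where 5.74% of all genes did, and 0 of 2 at 48 h, where 42.8% did. With the block 1 of 2 passed at each time, PAX8 in both, against 24.4% of all genes at 24 h and 57.5% at 48 h. None passed for the difference of the effects (0.141% of all genes), for Kbr cells over time (10.6%) or for controls over time (3.29%). At an unadjusted p under 0.05, limma gave 1 member of 2 at 24 h (23.7% of all genes), 0 at 48 h (51.1%) and 0 for the difference (16.1%). For Kbr cells over time the count was 1 (29% of all genes) and for controls over time 0 (21.4%). With 2 genes tested, these counts cannot be set apart from the shares over all genes.

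Taken singly, the probe sets of PAX8 did not all move alike. Probe sets 121_at, 207921_x_at, 207923_x_at, 207924_x_at, 209552_at and 214528_s_at differed between Kbr cells and controls by 0.34 to 0.56 on the log2 scale at 24 h and by 0.25 to 0.40 at 48 h. For each of these 6 the 3 Kbr arrays at 24 h were above the 3 controls, while 29.1% of all probe sets tested had groups that did not overlap at that time, in either direction. Names with _x_ mark sets that can also bind other transcripts, and the 6 sets share a gene, so they are not 6 separate observations.

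Probe set 221990_at went the other way at 48 h. Its log2 values were 6.47, 6.31 and 7.06 in Kbr cells, against 7.80, 7.56 and 7.61 in controls. All 3 Kbr arrays were below all 3 controls, with means of 6.62 ± 0.39 in Kbr cells and 7.66 ± 0.13 in controls (SD, n = 3 each). The difference, -1.04 on the log2 scale (SE 0.23) or 2.06-fold lower in Kbr cells, had a limma adjusted p of 0.00499 over 19521 probe sets, and stayed past the threshold in 12 of 12 fits that each left out 1 array (adjusted p 0.00178 to 0.0226).

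At 24 h 221990_at had log2 values of 7.26, 7.05 and 7.07 in Kbr cells, against 7.69, 6.85 and 7.00 in controls, with control replicate 1 the highest of the 6. The log2 difference was -0.06 (SE 0.23, limma adjusted p 0.927). The Kbr effect at 48 h minus that at 24 h was -0.99 (SE 0.32, limma adjusted p 0.207), so a change of the effect with time did not pass the test. Probe set 213917_at was 0.26 higher in Kbr cells at 24 h (adjusted p 0.642) and -0.35 relative to controls at 48 h (adjusted p 0.329), with overlapping groups at both times.

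**Figure D2:**
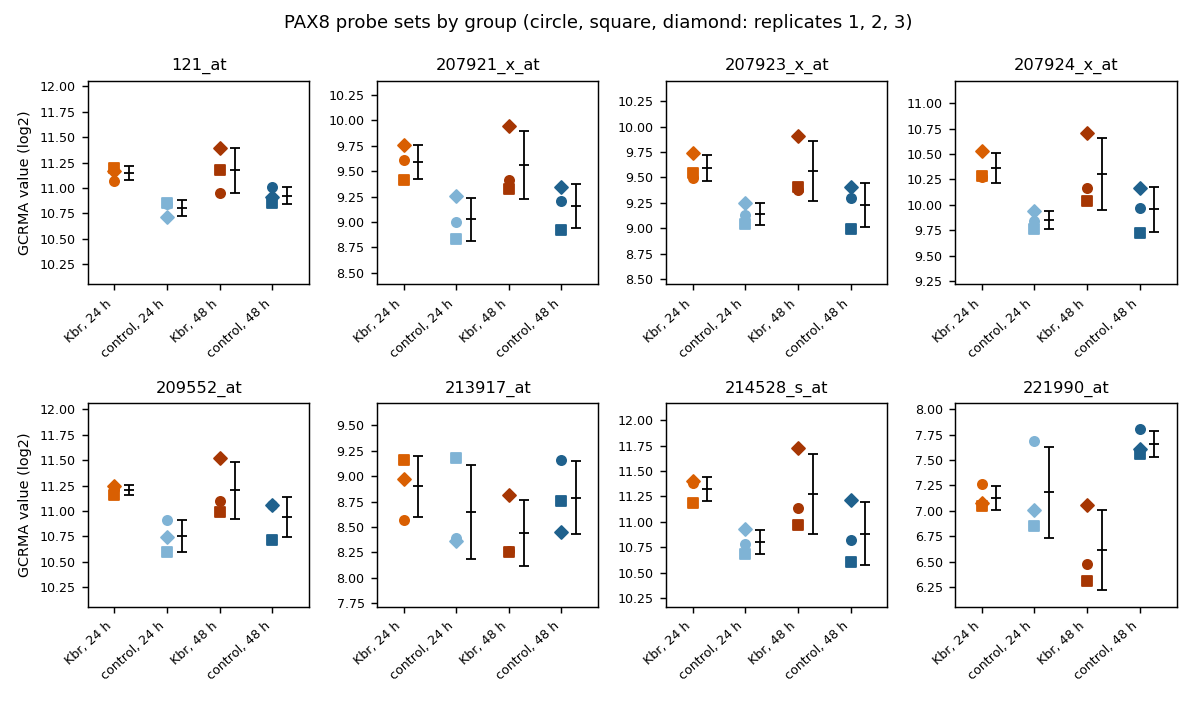
Each panel shows a PAX8 probe set, with the 3 arrays of each group as points (log2 GCRMA value, every panel spanning the same width on its vertical axis) and the mean ± SD as bars. Probe set 221990_at is lower in Kbr cells at 48 h (6.62 against 7.66), whereas 214528_s_at is higher in Kbr cells at 24 h (11.32 against 10.80).

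The divergence of 221990_at from 214528_s_at was measured within each array, a comparison set up after the values had been seen. Its log2 value minus that of 214528_s_at was -4.12, -4.14 and -4.33 in Kbr cells and -3.09, -3.83 and -3.92 in controls at 24 h. At 48 h it was -4.66, -4.66 and -4.66 in Kbr cells and -3.02, -3.04 and -3.61 in controls. At each time the Kbr arrays were all below the controls. Averaged over both times the difference between Kbr cells and controls was -1.01, with an exact two-sided permutation p of 0.005 over 400 arrangements within times, the smallest that this design allows, and an adjusted p of 0.035 over the 7 probe sets compared with 214528_s_at. Those arrangements ignore the pairing of the arrays. The difference was below 0 in 6 of 6 same-number pairs. Flipping signs within the pairs gave an exact p of 0.031, the smallest that 64 arrangements allow. Its adjusted p was 0.109, so the divergence did not pass when the pairing was kept. With 7 probe sets compared, 1 set at that smallest p cannot pass unless most of the others reach it too. The sign-flip test therefore cannot decide whether the divergence holds.

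For 213917_at the same measure was -0.51 (exact permutation p 0.105, adjusted p 0.368, and 0.146 with the pairing kept). The remaining 5 probe sets ranged from -0.17 to 0.02, with adjusted p of 0.385 to 0.685 in this permutation test and 0.109 to 0.50 with the pairing kept. The lowest of these, 121_at at -0.17, was also below 0 in 6 of 6 pairs. Its sign-flip p of 0.031 and adjusted p of 0.109 equalled those of 221990_at. The 2 sets that departed most from 214528_s_at, 221990_at and 213917_at, are the 2 of the 8 whose annotated target is an expressed sequence tag; 3 are annotated with a RefSeq transcript, 2 with another mRNA record and 1 with none. Which PAX8 transcript ends each set reads was not tested.

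Over the 9 probe sets above the floor, 0 passed at 24 h (3.74% of all probe sets) and 6 had an unadjusted limma p under 0.05 (20.7% of all); all 6 are probe sets of PAX8. At 48 h 1 passed (38.6% of all probe sets), 2 had an unadjusted p under 0.05 (48% of all), and 1 of 9 had groups that did not overlap, against 48% of all. None passed for the difference of the effects (0.0768% of all), for Kbr cells over time (7.47%) or for controls over time (1.76%). At an unadjusted p under 0.05 limma gave 1 for that difference (14.8% of all), 2 for Kbr cells over time (25.7%) and 0 for controls over time (19.3%). With the block 5 passed at 24 h, all higher in Kbr cells, where 19.1% of all probe sets passed. At 48 h 5 passed with the block, 207921_x_at, 207923_x_at, 207924_x_at and 214528_s_at higher in Kbr cells and 221990_at lower, where 53.4% of all did.

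**Figure D3:**
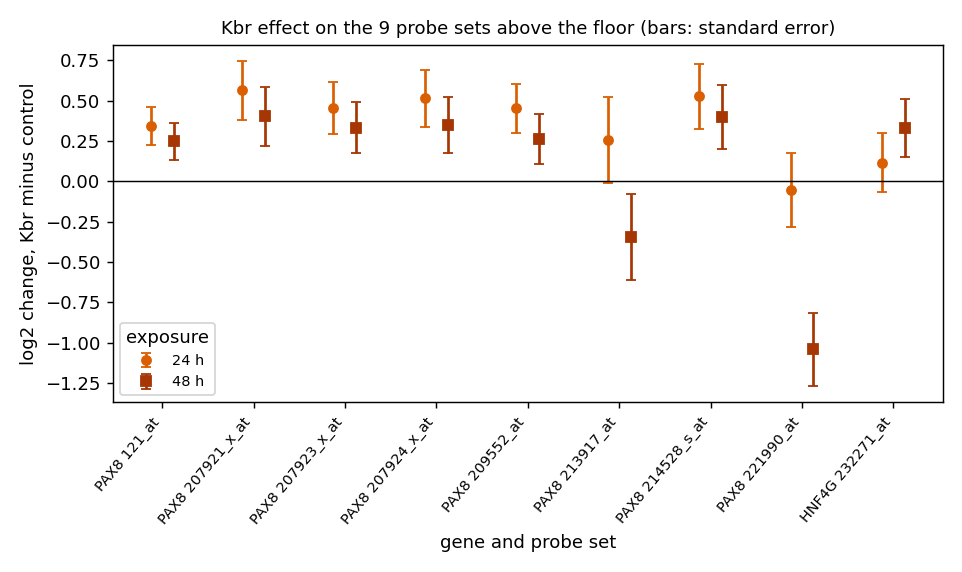
Log2 difference between Kbr cells and controls (vertical axis) for the 9 probe sets above the floor, at 24 h (circles) and 48 h (squares), with bars for the standard error of limma. At 48 h PAX8 221990_at is at -1.04 and 214528_s_at at 0.40.

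The remaining members were at or near the floor in all 4 groups. PAX2 lay between 1.92 and 1.98 in 206228_at and between 2.50 and 2.81 in 206229_x_at. WT1 lay between 2.81 and 2.94 in 206067_s_at and between 2.17 and 2.20 in 216953_s_at. EMX2 ranged from 2.22 to 2.27 in its single probe set. POU3F3 had 3 probe sets, with ranges of 2.14 to 2.18 in 237008_at, 2.13 to 2.17 in 208563_x_at and 2.42 to 2.49 in 228780_at. Such values set only an upper bound on these transcripts and say nothing of a change.

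LHX1, which acts early in nephron formation, was the member just outside the threshold. Probe set 206230_at had log2 values of 3.64, 3.75 and 4.02 in Kbr cells, against 4.05, 3.62 and 3.96 in controls at 24 h. At 48 h they were 3.54, 3.51 and 3.56 in Kbr cells, against 3.55, 3.42 and 3.54 in controls. It exceeded 4 in 2 arrays, 1 Kbr and 1 control array of 24 h. The member just inside was HNF4G 232271_at, whose lowest value was 4.61. Without any filter the log2 difference of LHX1 between Kbr cells and controls was -0.08 at 24 h (limma adjusted p 0.762) and 0.03 at 48 h (0.910). From 24 h to 48 h it was -0.27 in Kbr cells (limma adjusted p 0.375) and -0.38 in controls (0.249).

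Among the 10 low probe sets, 7 had their highest value in Kbr replicate 2 at 24 h, which is also the array with the highest median, 2.99 against at most 2.97 elsewhere. The part of this array's level in those values was not tested. The ranges of these 10 sets over the 12 arrays were 0.029 to 0.63 on the log2 scale. Antisense and divergent neighbours of the members were as low: of 8 listed, 4 were annotated and 0 were above the floor. PAX8-AS1 lay between 2.24 and 2.48 over 3 probe sets, EMX2OS between 2.19 and 2.32 over 2, WT1-AS between 2.36 and 2.44, and HNF4A-AS1 between 2.78 and 2.93.

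Most of the other kidney transcription factors that could be measured were lower in Kbr cells than in controls at 48 h. Here and below, fell and rose mean lower or higher in Kbr cells than in controls at the same time. They do not mean a change over time. Of 33 listed, 25 were annotated and 11 were above the floor. At 48 h 8 of these 11 fell and 0 rose, with a median log2 change of -0.79, against -0.004 over all genes, of which 20.8% fell and 22% rose. TFCP2L1, a factor of the distal nephron and collecting duct, fell by 2.61 on the log2 scale (SE 0.30, limma adjusted p 0.000155), with means of 4.76 ± 0.44 in Kbr cells and 7.37 ± 0.22 in controls (SD, n = 3 each). SIM1 fell by 1.45 (adjusted p 0.000492), TFAP2A by 1.03 (0.000552) and IRX3, a patterning factor of nephron segments, by 1.17 (0.00192). From 24 h to 48 h the list's median log2 change was 0.27 in controls and 0.036 in Kbr cells. Over that interval 1 of 11 passed in controls (3.29% of all genes) and 0 in Kbr cells (10.6%). The 1 was TFCP2L1, at 1.64 in controls (limma adjusted p 0.0255) and 0.54 in Kbr cells (0.267).

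At 24 h 1 of the 11 fell and 0 rose, with a median of -0.29 against -0.016 over all genes, of which 3.25% fell and 2.48% rose. It was again TFCP2L1, which fell by 1.51 (SE 0.30, limma adjusted p 0.0210), a call lost in 4 of 12 fits that left out 1 array (adjusted p 0.0652 to 0.0804 in those), without a filter and with only the groups compared. With the block 5 of the 11 fell at 24 h, where 24.4% of all genes passed in either direction. At 48 h 8 fell and 1 rose with the block, where 57.5% of all genes passed. PAX8 and HNF4G were at 0.40 and 0.33 on the log2 scale at 48 h, where the list's median was -0.79. Positions above that median were not particular to them. Of the 3 listed factors that did not pass without the block, FOXD1 was at 0.48, HOXD11 at 0.20 and ESRRA at -0.12. The contrast of PAX8 and HNF4G with the list was not tested.

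**Figure D4:**
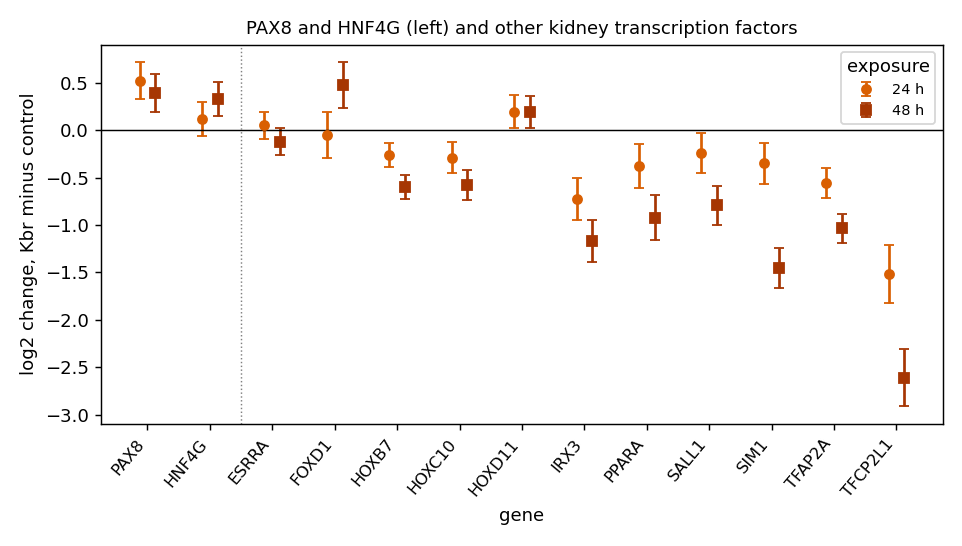
Log2 difference between Kbr cells and controls (vertical axis) for PAX8, HNF4G and the 11 other kidney transcription factors above the floor, at 24 h (circles) and 48 h (squares), with bars for the standard error of limma. PAX8 and HNF4G are at 0.40 and 0.33 at 48 h, and TFCP2L1 is at -2.61.

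Most of the measured proximal tubule genes were also lower in Kbr cells than in controls at 48 h. Of the 7 above the floor 6 fell and 0 rose, with a median log2 change of -1.03, against -0.004 over all genes, of which 20.8% fell. SLC3A1 fell by 1.91 (limma adjusted p 0.000395), CDH6 by 1.51 (0.000901), the creatine synthesis enzyme GATM by 0.99 (0.00337) and the scaffold PDZK1 by 1.03 (0.00431). From 24 h to 48 h the list's median log2 change was 0.61 in controls and 0.15 in Kbr cells. Over that interval 0 of 7 passed in controls (3.29% of all genes) and 1 in Kbr cells (10.6%). The 1 was CDH6, at -1.07 in Kbr cells (limma adjusted p 0.0246). At 24 h 1 of 7 fell, SLC3A1 by 1.34 (adjusted p 0.0210), lost in 4 of 12 fits that left out 1 array and without a filter; with the block 4 of 7 fell, where 24.4% of all genes passed in either direction.

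Relatives of the members were mostly low. Of 23 genes of the paired-box, POU, LIM-homeobox and HNF4 families and of factors that share the DNA site or dimer role of a member, 6 were above the floor: PAX6, LHX6, RXRA, RXRB, EGR1 and SP1. At 48 h 3 of 6 fell and 0 rose, with a median of -0.59; over all genes 42.8% passed, 20.8% by falling, and a count of 3 does not set these relatives apart. The retinoid receptor RXRA fell by 1.34 (limma adjusted p 0.000714), EGR1, whose zinc fingers resemble those of WT1, by 0.96 (0.00240) and SP1 by 0.65 (0.00333). None passed at 24 h, where the median was -0.36, and 3 of 6 fell with the block, where 24.4% of all genes passed.

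Markers of other cells moved with the exposure too. Of 8 fibroblast and mesenchyme markers 4 were above the floor, COL1A1, ACTA2, DCN and LUM, and all 4 fell at 48 h; the log2 of the list's summed level was 10.62 to 11.13 in Kbr cells and 12.41 to 12.49 in controls. Of 6 podocyte markers 4 were above it, PODXL, SYNPO, PTPRO and PLA2R1, and 3 fell at 48 h, with sums of 12.60 to 12.65 in Kbr cells and 13.09 to 13.38 in controls. Of 11 distal nephron and collecting duct markers only AQP3 and SCNN1A were above it and both fell, with sums of 8.29 to 8.70 in Kbr cells and 9.53 to 9.78 in controls. In each list 1 marker, DCN, PTPRO or SCNN1A, made up most of the sum at 48 h. The podocyte sum was nearly all PTPRO, with means of 12.61 in Kbr cells and 13.22 in controls at 48 h. When probe sets were averaged for each gene, 1 podocyte and 1 distal marker fell at 48 h. Of all genes 20.8% fell at that time. At 24 h 2 fibroblast markers (COL1A1 and DCN), 0 podocyte markers and 1 distal marker (AQP3) fell, where 3.25% of all genes did. With the block 1 podocyte marker fell at 24 h, where 24.4% of all genes passed in either direction. Over the 12 fits that left out 1 array, DCN passed in 3 (adjusted p up to 0.156) and AQP3 in 7 (up to 0.118). Endothelial (0 of 6) and immune (0 of 4) markers were below the floor. The part of these markers in the falls of TFCP2L1, SLC3A1 and the other genes was not tested.

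Genes with a pattern like those of the members were sought by the smallest root mean square difference of log2 values over the 12 arrays, each gene centred on its own mean. These were named although no member passed the gene-level test, a choice made after the values were seen. For PAX8 they were LRRC61 at 0.106, RAB22A at 0.141 and BRF2 at 0.146, where the median over all genes was 0.396. HNF4G had ZNF79 at 0.114, INPP5B at 0.132 and DTNBP1 at 0.142, against a median of 0.404. For PAX8 221990_at the nearest probe sets were those of DNAJC4 at 0.169, VASN at 0.176 and ITM2C at 0.180, against a median of 0.517.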

How the data were processed

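The deposited values of 54675 probe sets on 12 Affymetrix arrays are on a log2 scale, as read from the values, and were made by the authors with GCRMA, per the submitters' processing notes; its version is not given in the sources used here. GCRMA models background from probe sequence and normalizes arrays together, which compresses differences near the floor. The probe annotation gave 1 symbol to 41091 probe sets, several to 1801 and none to 11721, and 62 were array controls; 41037 symbols were matched to a current gene table and 0 changed. The precision is limited by 3 arrays per group.

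The probe set with the highest mean stood for each of 19775 genes, and the 10665 above log2 4 in at least 3 arrays were tested. The 4 group means were fitted to all 12 arrays with limma 3.58.1 in R 4.3.3. P values are two-sided, adjusted by Benjamini-Hochberg over all genes (or over 19521 probe sets), and called under 0.05. For 3 arrays against 3, the smallest p of an exact permutation test is 0.1. The script was tested on simulated data. Replicate numbers come from the labels. Correlations of deviations from group means were 0.28 to 0.70 for the 18 same-number pairs and -0.45 to -0.061 for the 36 others. Centring on group means ties these ranges together, so the negative values are not separate evidence. The pairing of the arrays by number rests on the same-number correlations. The members, lists and tests were chosen with earlier results of these data known. Named were all members, up to 4 genes per list and time with the smallest p among those that passed, measured members of the other cell type lists, and the 3 genes nearest in pattern; a few other list members (proximal tubule markers, PAX6, LHX6, RXRB, EP300, PAXIP1, GFRA1 and BMP7) were named after their values were seen. Alternatives were the replicate block, other filters, normalizations, summaries and variance models, and leaving out each array.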

Additional observations from a re-analysis of the deposited data

How the results depend on the processing

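Among 1841 recomputed values, 1695 kept their direction and side of the threshold (or moved by less than the limit set for a count), 43 lost the call, 16 gained it, 81 counts moved and 6 reversed. With the replicate block 1 member gene passed at 24 h and 1 at 48 h, and 5 probe sets at each time; with only the groups compared 1 member gene passed at 24 h. The block changed no call of HNF4G at 24 or 48 h. Over the fits that left out 1 array, the count of member genes past the test ranged from 0 to 1 at 48 h and for Kbr cells over time, and the count of probe sets from 1 to 2 at 48 h and from 0 to 2 for Kbr cells over time. Reversals came in those fits: the PAX8 difference between the Kbr effects ranged from -0.35 to 0.038, PAX8 over time from -0.27 to 0.11 in Kbr cells and from -0.085 to 0.22 in controls, and PAX8 221990_at at 24 h from -0.22 to 0.20. The cause was not tested. Raising the detection threshold from log2 4 to 5 left 9 member probe sets above it and to 6 left 8; lowering it to 3 gave 10. Signal near the floor limits HNF4G and the 10 low probe sets most. The settings for probe sets singly and for the lists were added after seeing the data.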

Other observations

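Of 17 annotated partners and co-regulators of the lineage factors, 14 were above the floor, of which 3 rose and 2 fell at 48 h, with a median log2 change of 0.17. Over all genes 22% rose and 20.8% fell, so these counts are no higher than the shares over all genes. WTAP, named for its binding to WT1 and a subunit of the RNA methyltransferase complex, rose by 0.94 (SE 0.093, limma adjusted p 7.34e-05), with means of 12.54 ± 0.059 in Kbr cells and 11.60 ± 0.059 in controls (SD, n = 3 each). The acetyltransferases CREBBP and EP300 rose by 0.50 (0.0197) and 0.44 (0.0308). The count of rises was 1 to 3 over the fits that left out 1 array and 1 with only the groups compared, and CREBBP lost its call in 4 of those 12 fits. PPARGC1A, a coactivator of nuclear receptors including HNF4A, fell by 1.01 (0.00937) and SSBP3, a partner of LIM-domain complexes, by 0.93 (0.00419). At 24 h WTAP alone rose among the partners, by 0.43 (limma adjusted p 0.0263), and none fell. Its call was lost in 5 of 12 fits that left out 1 array, with only the groups compared and with the mean of its probe sets, which gave 0.15. With the block 6 partners rose and 4 fell at 48 h, where 57.5% of all genes passed in either direction. At 24 h 3 fell with the block, where 24.4% of all genes passed. PAXIP1, an adaptor between PAX2 and the KMT2D methyltransferase complex, was 0.25 higher in Kbr cells at 48 h (adjusted p 0.0744).

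Signals of nephron induction had 6 of 16 annotated genes above the floor. SPRY1, an inhibitor of the receptor pathway that acts downstream of GDNF, fell by 2.18 at 48 h (limma adjusted p 0.00196). It was the only call of the list at that time without the block, where 20.8% of all genes fell. With the block 3 of 6 fell at 48 h, where 57.5% of all genes passed in either direction. The GDNF co-receptor GFRA1 was -0.39 relative to controls (adjusted p 0.230) and BMP7 0.006 (0.978). None passed at 24 h without the block. With the block 1 fell at that time, where 24.4% of all genes passed in either direction.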
